A study of Mus musculus with 6 samples.

Results

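The 8 genes described here take up, convert, bind and sense thyroid hormone in a cell. They are the transporters Slc16a10 and Slco1c1, the deiodinases Dio1, Dio2 and Dio3, the nuclear receptors Thra and Thrb, and the cytosolic binding protein Crym. Their probes were found by gene name or, for an unnamed probe, by its description, which gave 16 of the 41174 probes on the array, 14 by name and 2 by description. All 8 genes were among the 21395 genes tested.

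The cells were sorted from C57BL/6 mice and measured on 6 single-colour Agilent arrays, 3 per group. The thymic cells came from the medulla of the thymus and were Epcam+, UEA1+, CD45- and Fluorogold-, that is, live epithelial cells that bind the lectin UEA1 and lack the blood cell protein CD45. The thyroid cells were Epcam+, CD45- and Fluorogold-, with no lectin in the gate. A pool of 6 thymi gave each of the first 2 thymic replicates, a pool of 2 thymi gave replicate 3, and every thyroid replicate held 20 thyroids. The labels give no treatment, and age and sex are not given in the sources used here. Since each array holds a pool, the p-values measure the spread between pools, and 3 arrays per group limit the precision.

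The thyroid gland secretes mostly thyroxine, a precursor that gains activity when a deiodinase removes an iodine from its outer ring to give triiodothyronine. Both hormones enter cells through membrane transporters, and inside the cell triiodothyronine binds the receptors Thra and Thrb, which sit on DNA as partners of the retinoid X receptors. Removal of an inner-ring iodine inactivates the hormone. The thyroid gland is both the source of the hormone and a site of deiodination. Medullary thymic epithelium is known for transcribing, at low frequency per cell, many genes that otherwise mark other tissues.

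Values below are log2 of the processed signal minus the array's 75th percentile, so 0 is the brightness that 75% of probes stay under. A probe counts as above background where the scanner software flagged it well above background, which these files set at 13 background SDs. Between 78.4% and 81.0% of probes carried that flag on the thymic arrays, and between 65.3% and 72.7% on the thyroid arrays. The signal at the 75th percentile lay between 636 and 722 in the thymic group and between 446 and 761 in the thyroid group, with no saturated spot. Replicates correlated over genes at 0.994 to 0.995 within the thymic group and at 0.987 to 0.990 within the thyroid group.

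The marker lists matched the labels, with markers of other cell types measured in both groups. Tg, the thyroglobulin gene, averaged -1.74 ± 0.09 on the thymic arrays and 9.04 ± 0.24 on the thyroid arrays (SD, n = 3 each). Of 10 thyroid follicular markers, 9 were higher in thyroid, and all 8 measured markers of medullary thymic epithelium were higher in thymic cells. All 13 endothelial markers were higher in thyroid, with a summed level of 5.52 to 6.11 on the thymic arrays and 768 to 1130 on the thyroid arrays, in units of the 75th percentile signal. All 13 were above background on at least 1 array of each group. Parathyroid markers summed to 14.2 to 49.4 on the thymic arrays and 90.1 to 408 on the thyroid arrays, with the top value in thyroid replicate 2. Myeloid and dendritic markers went the other way, with sums of 101 to 110 on the thymic arrays and 1.40 to 2.79 on the thyroid arrays, and 5 of 6 were higher in thymic cells. Of 7 skeletal muscle markers, 6 were higher in thymic cells, with sums of 6.11 to 7.03 on the thymic arrays and 0.520 to 0.873 on the thyroid arrays. Also higher in thymic cells were 5 of 6 brown adipocyte markers, 8 of 9 thymocyte markers and all 5 B cell markers, beside 39.3% of all genes tested. In these lists 1, 3 and 2 genes, in that order, were above background on no thyroid array and entered the test through the thymic arrays alone. With arrays centred on their median, the counts higher in thymic cells were 5, 5 and 4. The 8 C cell markers were split, 5 standing higher on the thymic side and 3 on the thyroid side, but their sums were 94.1 to 125 on the thymic arrays and 507 to 913 on the thyroid arrays, with Calca, the calcitonin gene, 16.5-fold higher in thyroid. Of 6 fibroblast markers 1 was higher in thymic cells, and of 4 glial markers 2 were higher in thyroid. The part of these cells in the values below was not tested, and in such bulk samples fewer cells of a type and less RNA per cell cannot be told apart.

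Of the 8 genes, 5 were higher in thymic cells (Slco1c1, Dio2, Dio3, Thrb and Crym), 2 were higher in thyroid cells (Slc16a10 and Thra), and Dio1 did not pass the test (limma, two-sided, Benjamini-Hochberg adjusted p over all genes tested). The background is high: 69.7% of all genes tested were called, with 39.3% higher in thymic cells and 30.5% higher in thyroid cells. Of all calls, 56.3% pointed to the thymic side, a share that was 35.6% when arrays were centred on their median. The thymic and thyroid values did not overlap for 7 of the 8 genes, 5 with thymic and 2 with thyroid values higher. Over all genes tested the shares were 76.5%, 42.2% and 34.3%. Of the 13 tested probes of the 8 genes, 7 were called higher in thymic cells and 4 higher in thyroid cells, against 37.3% and 31.3% of all probes tested. Slco1c1, Dio3 and Crym were above background on no thyroid array and entered the test through the thymic arrays alone, so their place among the calls follows in part from that filter. Of all genes tested, 10.8% were above background on no thyroid array.

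**Figure D1:**
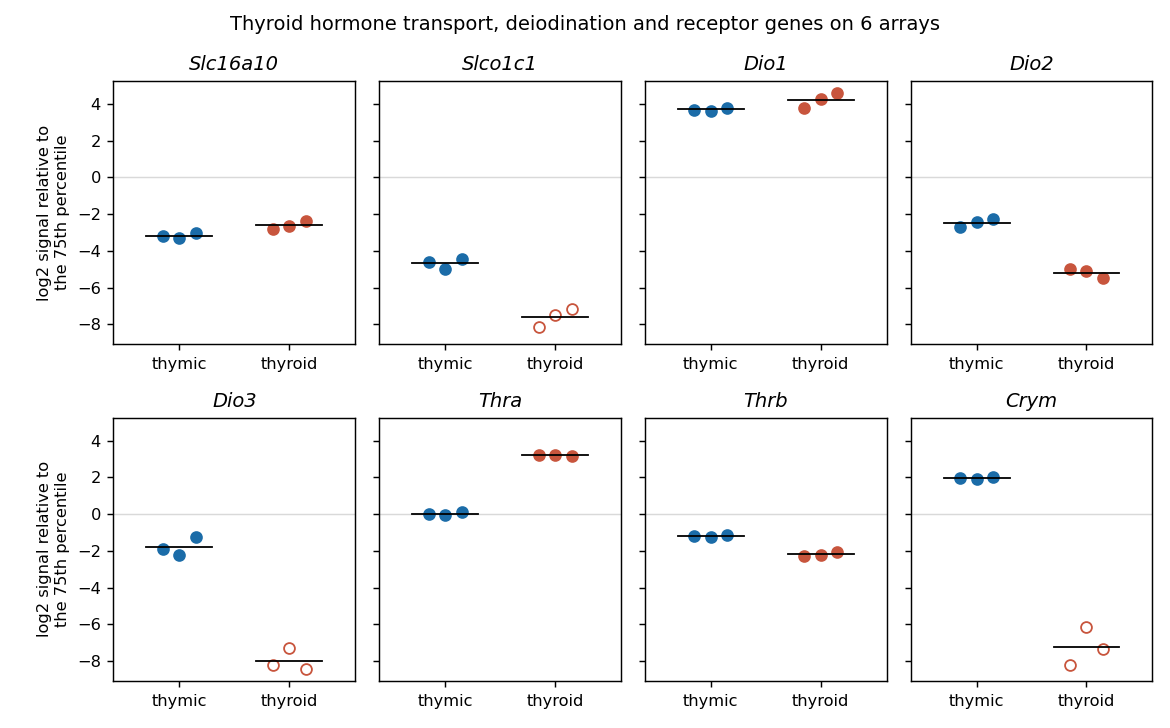
Log2 signal relative to the array's 75th percentile (y axis) for the 8 genes in 3 thymic arrays (blue, left) and 3 thyroid arrays (red, right). Points are arrays in replicate order, filled where above background and open where not, and black lines are group means. Slco1c1, Dio3 and Crym have open points on every thyroid array, Thra is higher in thyroid cells, and Dio1 alone overlaps.

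Slc16a10 encodes a transporter of aromatic amino acids that also carries thyroid hormones across the plasma membrane. Its representative probe, at chr10:39726090-39726149 (mm8, minus strand), had -3.19, -3.32 and -3.01 on the thymic arrays, against -2.80, -2.64 and -2.38 on the thyroid arrays. Every thyroid value lay above every thymic one, by a narrow margin. The means were -3.17 ± 0.16 in thymic cells and -2.61 ± 0.21 in thyroid cells, a difference of -0.56 (SE 0.15), or 1.48-fold higher in thyroid (adjusted p = 0.0136). The call was lost on slide 1 alone (-0.37, adjusted p = 0.100), with the slide as a block (adjusted p = 0.141), with normexp background correction (-0.35, adjusted p = 0.0648) and without thymic replicate 2 (-0.49, adjusted p = 0.0525).

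The 4 Slc16a10 probes did not give a single answer. The representative probe lies 39187 bases from the next one and is the brightest. A probe at chr10:39766187-39766246, whose sequence is printed below because it holds a reading frame free of stop codons and gave the larger difference, had -5.06, -5.09 and -5.16 on the thymic arrays, against -4.43, -3.87 and -4.46 on the thyroid arrays. It differed by -0.85 (adjusted p = 0.00430 over all probes). The probe found by description had -4.07, -4.45 and -4.04 on the thymic arrays, against -4.51, -3.98 and -3.84 on the thyroid arrays, which overlap (difference -0.08, adjusted p = 0.759). The remaining probe was above background on no thymic array and on 1 thyroid array and was not tested.
Slc16a10 probe: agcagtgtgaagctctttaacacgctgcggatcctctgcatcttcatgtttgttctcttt

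Slco1c1 encodes an organic anion transporter with a preference for thyroxine, best known from the blood-brain barrier. Its only probe, listed at chr6:141525616-141526979 (mm8, plus strand), had -4.62, -5.00 and -4.44 on the thymic arrays, against -8.14, -7.49 and -7.18 on the thyroid arrays. All 3 thymic values were dim but above background, and no thyroid value was. With means of -4.69 ± 0.29 in thymic cells and -7.60 ± 0.49 in thyroid cells, the gene exceeded its thyroid level at least 2.46-fold in thymic cells (fitted difference 2.92, adjusted p = 8.72e-05). Such a bound sets the thymic mean against a thyroid mean in which each array takes the higher of the probe's own value and the lowest value above background on that array. The thymic processed signals were 29.4, 20.6 and 29.4 before scaling, below the offset of 50 that normexp correction adds, and under that correction the difference was 0.34 (adjusted p = 0.114). The listed coordinates span 1364 bases for a probe of 60 bases, as for a probe placed across an intron. Its sequence is shown because it is the only readout of this gene here and holds a reading frame free of stop codons.
Slco1c1 probe: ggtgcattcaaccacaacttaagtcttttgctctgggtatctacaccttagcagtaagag

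The other transporters of the hormone were also split. Of 14 listed, 13 were tested, with 8 higher in thymic cells and 4 higher in thyroid cells. These are shares of 61.5% and 30.8%, beside 39.3% and 30.5% of all genes tested. The median difference was 1.62 against 0.10 over all genes tested. Slco1b2 and Slc17a4, 2 of the 8, were above background on no thyroid array, and with both at their bounds the median was 1.45. Median centring called 6 of the list higher in thymic cells and 4 in thyroid cells, with a median of 1.08. Slco2b1 and Slc10a1, both organic anion or bile acid carriers, were higher in thyroid, with differences of -2.65 and -2.26, though Slc10a1 was above background on 1 thymic array. Towards the thymic side stood Slco4a1, a broadly expressed organic anion transporter, with 1.87 ± 0.07 in thymic cells and -4.03 ± 0.08 in thyroid cells. Slc17a4, a transporter of the phosphate family, exceeded its thyroid level at least 17.8-fold in thymic cells and was above background on no thyroid array. Slco1a5 differed by 4.47 and was above background on 2 thyroid arrays.

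**Figure D2:**
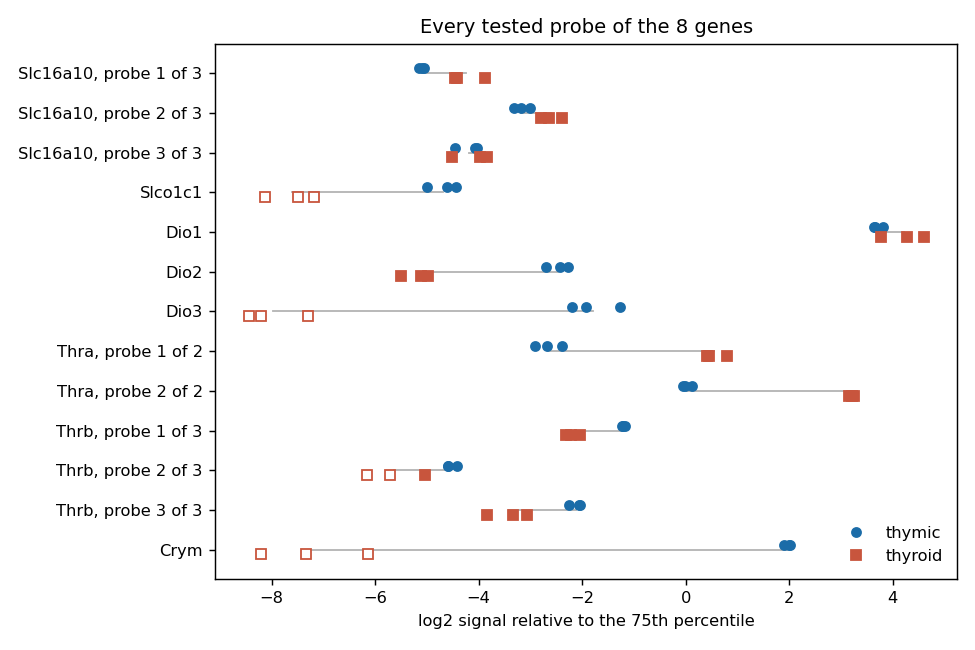
Log2 signal relative to the 75th percentile (x axis) for each of the 13 tested probes of the 8 genes, with thymic arrays as blue circles and thyroid arrays as red squares, open where not above background. Grey lines join group means. Both Thra probes are higher in thyroid and all 3 tested Thrb probes are higher in thymic cells.

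Dio1 encodes the deiodinase of liver, kidney and thyroid, which can act on either ring. At chr4:106789379-106789415 (mm8, minus strand), its probe, of which the listed alignment covers 37 bases, had 3.65, 3.64 and 3.81 on the thymic arrays, against 3.77, 4.27 and 4.60 on the thyroid arrays. Thyroid replicate 1 fell among the thymic values, while thyroid replicates 2 and 3 lay above them. The means were 3.70 ± 0.09 in thymic cells and 4.21 ± 0.42 in thyroid cells, a difference of -0.51 with a 95% interval of -1.02 to 0.0024 (adjusted p = 0.0701). A higher level in thyroid cells by up to 1.02 on the log2 scale lies within that interval. The call depended on the setting: the difference was -1.05 with median centring (adjusted p = 0.0025), -0.73 without thyroid replicate 1 (adjusted p = 0.00644) and -0.07 on slide 1 alone (adjusted p = 0.669).

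Dio2 encodes the activating deiodinase, which makes triiodothyronine inside the cell and is switched by cyclic AMP in several tissues. Its 2 probes differ in use, since the one found by description was above background on no array. The named probe, at chr12:91130186-91130245 (mm8, minus strand), had -2.69, -2.43 and -2.27 on the thymic arrays, against -4.98, -5.11 and -5.51 on the thyroid arrays. All 6 values were above background and the groups lay far apart. The means were -2.46 ± 0.21 in thymic cells and -5.20 ± 0.28 in thyroid cells, 6.65-fold higher in thymic cells (difference 2.73, SE 0.18, adjusted p = 1.81e-05). With normexp correction the difference was 1.20 and with quantile normalization 1.93, both still called.

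Dio3 encodes the inactivating deiodinase, an imprinted gene known from placenta, fetal tissues and brain. Its probe, at chr12:110728714-110728773 (mm8, plus strand), had -1.92, -2.21 and -1.27 on the thymic arrays, against -8.20, -7.30 and -8.44 on the thyroid arrays. Among the thymic values, replicate 3 was the highest. No thyroid value was above background. Mean levels of -1.80 ± 0.48 in thymic cells and -7.98 ± 0.60 in thyroid cells gave at least 18.2-fold higher signal in thymic cells (fitted difference 6.18, adjusted p = 9.33e-06). The fitted difference was 1.95 with normexp correction. Dio3os, the transcript on the opposite strand of the locus, has a probe 3611 bases from that of Dio3 and was above background on none of the 6 arrays.

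The starts of Dio2 and Dio3 are shown because both genes were higher in thymic cells, by 6.65-fold and at least 18.2-fold, and lie on the same chromosome with very different start regions. Each run holds the 250 bases before the RefSeq start (GRCm38.p6), at chr12:90739039-90739288 on the minus strand for Dio2 and chr12:110278980-110279229 on the plus strand for Dio3. Capitals mark matches, on either strand, to TATAAA, to CCAAT and to TGACGTCA, the consensus cyclic AMP response element.
Dio2 start: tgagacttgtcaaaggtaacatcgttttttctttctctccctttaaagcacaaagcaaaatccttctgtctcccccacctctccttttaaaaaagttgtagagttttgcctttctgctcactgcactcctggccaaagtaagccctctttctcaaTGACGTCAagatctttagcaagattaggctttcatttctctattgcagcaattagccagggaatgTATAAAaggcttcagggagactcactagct
Dio3 start: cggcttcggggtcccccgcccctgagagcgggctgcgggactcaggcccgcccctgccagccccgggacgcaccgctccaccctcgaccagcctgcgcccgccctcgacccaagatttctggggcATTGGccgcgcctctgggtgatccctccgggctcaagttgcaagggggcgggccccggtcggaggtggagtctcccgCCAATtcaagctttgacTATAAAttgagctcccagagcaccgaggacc

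TATAAA begins 30 bases before the start of Dio2 and 31 bases before that of Dio3, and 13.6% of the 32851 RefSeq mouse windows of 300 bases (250 before and 50 after a start) hold it. TGACGTCA occurs in the Dio2 window, 95 bases before the start, and in 1.79% of all windows. CCAAT occurs at 2 places in the Dio3 window and in 37.4% of all windows. The receptor half-site AGGTCA was found in the window of the upstream Thrb start, beginning 184 bases before it, and in 16.3% of all windows. The direct repeat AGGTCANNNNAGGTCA, each match of which also counts as AGGTCA, was in none of the 7 member windows, which cover 6 of the 8 genes, and in 0.015% of all windows. A match is a match of letters and no measured binding site. The GC content was 44.7% in the Dio2 window and 69% in the Dio3 window.

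Genes that make selenoproteins were split in direction, and 3 of those that turn over Dio2 protein were higher in thyroid. All deiodinases hold selenocysteine. Of 7 listed genes for its synthesis and insertion, 2 were higher in thymic cells and 3 in thyroid cells. The shares were 28.6% and 42.9%, beside 39.3% and 30.5% of all genes tested, and the median difference was -0.15. Sephs2, which makes the selenium donor, had 2.76 ± 0.19 in thymic cells and -0.32 ± 0.07 in thyroid cells, the largest difference of the list (3.08, adjusted p = 2.60e-06). Eefsec, the selenocysteine elongation factor, differed by 0.31 (adjusted p = 0.0355), a call lost under 12 of 17 other settings, and by -0.22 with median centring. That centring left 1 gene of the list higher in thymic cells and 5 in thyroid cells. Sepsecs, Pstk and Trnau1ap, which act in making or reading selenocysteine tRNA, were higher in thyroid, by differences of -1.14, -0.92 and -0.34. The calls of Sepsecs and Pstk were lost with the median over their probes, and that of Trnau1ap under 5 of 17 other settings. Of 6 genes for ubiquitination and deubiquitination of Dio2, 3 were higher in thyroid and none higher in thymic cells in the reported limma fit. The shares were 50% and 0%, beside 30.5% and 39.3% of all genes tested. No gene of this list was higher in thymic cells at an unadjusted p under 0.05. Quantile normalization called 2 higher in thymic cells, normexp correction 1, and Ube2j1 was also called there with trended and robust variances and with the median over its probes. Median centring and the deposited value table each called 5 of the 6 higher in thyroid. The 3 called in thyroid were Wsb1, the recognition subunit (difference -1.55), the conjugating enzyme Ube2g2 (-0.85) and the ligase Marchf6 (-0.57). The other 3 had adjusted p-values between 0.0751 and 0.163.

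Thra encodes the receptor form that dominates in heart, bone and brain. Its representative probe, at chr11:98581132-98581191 (mm8, plus strand), had -0.02, -0.05 and 0.11 on the thymic arrays, against 3.25, 3.22 and 3.16 on the thyroid arrays. Replicates lay close together within each group, and the groups were far apart. Thra averaged 0.02 ± 0.09 in thymic cells and 3.21 ± 0.05 in thyroid cells, 9.12-fold higher in thyroid (difference -3.19, SE 0.10, adjusted p = 9.60e-07). The second probe, at chr11:98580418-98580477, had -2.91, -2.40 and -2.69 on the thymic arrays, against 0.79, 0.44 and 0.40 on the thyroid arrays, a difference of -3.21 (adjusted p = 7.01e-06 over all probes). The probes gave similar sizes. Endothelial markers moved in the same direction, as given above, and their part in this difference was not tested. The second probe is printed because it holds 2 reading frames free of stop codons, where the representative probe holds 1.
Thra probe: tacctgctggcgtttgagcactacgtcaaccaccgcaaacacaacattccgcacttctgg

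Thra shares its locus with Nr1d1, which is read from the opposite strand and overlaps the end of the longer Thra transcript. Nr1d1 had -1.82, -0.71 and -1.51 on the thymic arrays, against -0.79, -1.44 and 0.11 on the thyroid arrays at its brightest probe. The groups overlapped, and the difference of -0.64 did not pass (adjusted p = 0.238). The last Thra probe ends 4111 bases before the first Nr1d1 probe, and each probe reads the strand of its own gene.

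Thrb encodes the receptor form known from liver, pituitary, retina and the inner ear. Its representative probe, at chr14:16829553-16829612 (mm8, plus strand), had -1.22, -1.23 and -1.16 on the thymic arrays, against -2.31, -2.21 and -2.05 on the thyroid arrays. Thymic values were the higher ones throughout, without overlap. The means were -1.21 ± 0.04 in thymic cells and -2.19 ± 0.13 in thyroid cells, 1.98-fold higher in thymic cells (difference 0.98, SE 0.11, adjusted p = 0.000226). Median centring gave a smaller difference of 0.45, still called (adjusted p = 0.00701). The 2 other tested probes gave 1.105 and 1.294, both higher in thymic cells (adjusted p = 0.00945 and 0.00123 over all probes), but the probe that gave 1.105 was above background on 1 thyroid array.

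Another Thrb probe lies 51597 bases upstream of the nearest of the others, at chr14:16775318-16775377, and is printed because it reads a part of the gene that the other 3 probes do not. It had -5.52, -6.80 and -5.62 on the thymic arrays, against -8.48, -7.47 and -8.80 on the thyroid arrays. Thymic replicates 1 and 3 were above background, thymic replicate 2 and all thyroid replicates were not, and the probe was not tested. The files name it as Thrb and place it at position 476 of the same transcript record as the probe that gave 1.105. Which receptor form it reads was not tested.
Thrb upstream probe: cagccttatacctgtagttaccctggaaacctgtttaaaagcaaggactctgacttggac

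**Figure D3:**
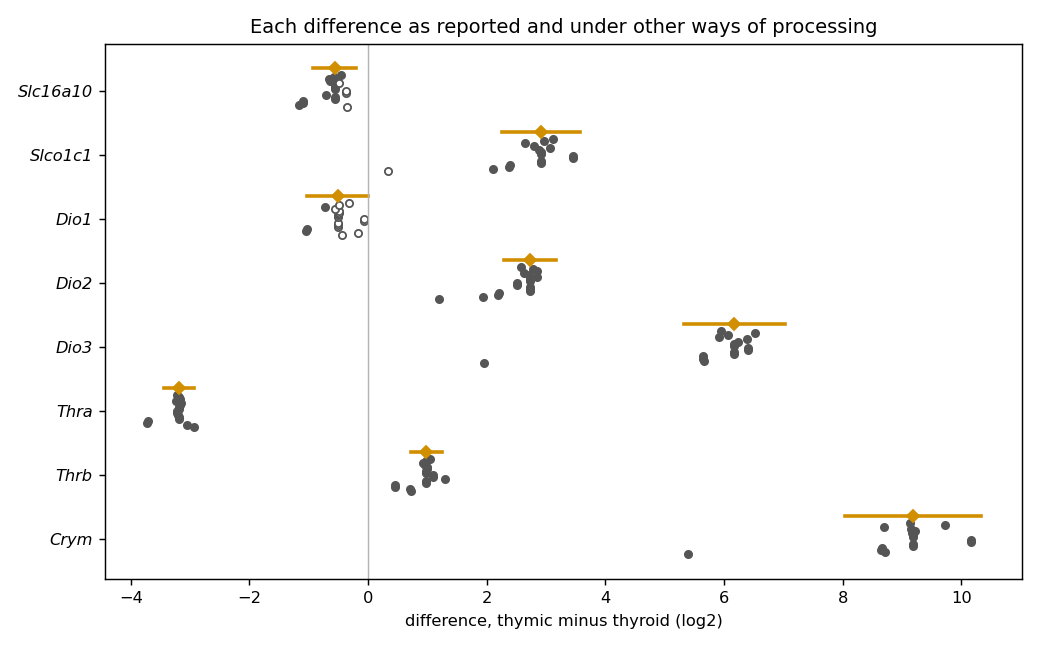
Difference in log2 signal, thymic minus thyroid (x axis), for the 8 genes. Orange diamonds are the reported differences with 95% intervals, and grey points are up to 17 other ways of processing, filled where adjusted p was under 0.05. Thra stays between -3.72 and -2.93 and Thrb between 0.45 and 1.29, while Slc16a10 and Dio1 have open points.

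Of 10 partners and coactivators of the receptors, 1 was higher in thymic cells and 4 in thyroid cells, shares of 10% and 40% beside 39.3% and 30.5% of all genes tested. The median difference was -0.27, and 9 were called higher in thyroid with median centring. Rxra, a shared dimer partner, had 2.60 ± 0.03 in thymic cells and 3.35 ± 0.12 in thyroid cells (difference -0.75, adjusted p = 0.000787). Rxrb was likewise higher in thyroid (-0.69, adjusted p = 0.00419), as were Med1, a Mediator subunit that binds nuclear receptors (-0.71), and Ppargc1a, a coactivator of mitochondrial genes (-1.34). Rxrg was higher in thymic cells, with -0.58 ± 0.26 there and -1.93 ± 0.81 in thyroid cells (difference 1.34, adjusted p = 0.0195), a call lost with median centring (adjusted p = 0.0968), with the slide as a block and without thymic replicate 1 or 3.

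Among 7 corepressor genes, 2 were higher in thymic cells and 1 in thyroid cells, with a median difference of 0.17. These are shares of 28.6% and 14.3%, beside 39.3% and 30.5% of all genes tested. Hdac3, the deacetylase of the corepressor complex, differed by 0.51 towards the thymic cells. With median centring its difference was -0.02, and 4 of the 7 genes were called higher in thyroid. Gps2, another subunit of the complex, was higher in thyroid (-0.77, adjusted p = 0.00511). Small differences in these lists depend on the scaling, since median centring moved the median of all genes by -0.54.

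Crym encodes mu-crystallin, which binds triiodothyronine in the cytosol. Its probe, at chr7:119977605-119977664 (mm8, minus strand), had 1.99, 1.89 and 2.02 on the thymic arrays, against -8.20, -6.13 and -7.34 on the thyroid arrays. Thymic values were tightly grouped and above the 75th percentile, while none of the thyroid values was above background. Crym averaged 1.96 ± 0.07 in thymic cells and -7.22 ± 1.04 in thyroid cells, at least 247-fold higher in thymic cells (fitted difference 9.19, adjusted p = 5.81e-06). With normexp correction the fitted difference was 5.40 (adjusted p = 1.24e-08), and on slide 1 alone 10.16.

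Of 10 carriers and conjugating enzymes of the hormone, 8 were called higher in thymic cells and 2 in thyroid cells. The shares of 80% and 20% stand beside 39.3% and 30.5% of all genes tested. Of the 8 called higher in thymic cells, 6 were above background on no thyroid array, against 10.8% of all genes tested. Those 6 entered the test through the thymic arrays alone, so their calls follow in part from that filter. Of the 4 genes above background on at least 1 array of each group, 2 were higher in thymic cells and 2 in thyroid cells. The median fitted difference of the list was 5.09, or 3.47 with the 6 genes at their bounds. Thymic cells had at least 105.3-fold more signal for Serpina7, the plasma thyroxine-binding globulin, and for Alb, albumin, at least 18.6-fold more. For Sult1c2, a sulfotransferase, the excess in thymic cells was at least 266-fold. Ttr, the carrier transthyretin, was dim at -4.83 ± 0.25 in thymic cells and -7.86 ± 0.57 in thyroid cells, or at least 2.23-fold higher on the thymic side (adjusted p = 0.000113), a call lost with normexp correction. Higher in thyroid were Sult1a1, a phenol sulfotransferase (-2.82), and Sts, the steroid sulfatase (-1.36).

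**Figure D4:**
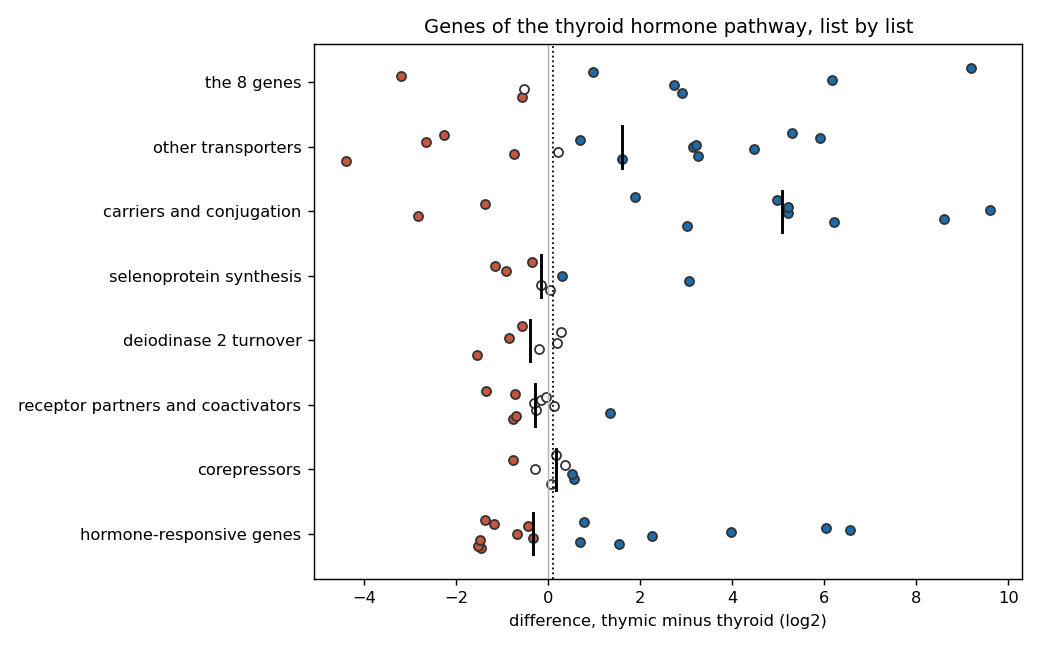
Difference in log2 signal, thymic minus thyroid (x axis), for every tested gene of the pathway lists and of the 8 genes. Points are genes, blue or red where called higher in thymic or in thyroid cells and white where not called. Black bars are list medians and the dotted line is the median of all genes tested (0.10). The bar for carriers and conjugation, at 5.09, rests on 6 genes above background on no thyroid array.

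Genes known from other tissues to respond to the hormone were split by direction. Of 16 listed, 15 were tested, with 7 higher in thymic cells and 8 higher in thyroid cells. As shares, 46.7% and 53.3% stand beside 39.3% and 30.5% of all genes tested. Klf9, a transcription factor gene induced in many tissues, had 0.84 ± 0.05 in thymic cells and 2.30 ± 0.14 in thyroid cells (difference -1.46, adjusted p = 4.12e-05). Thrsp, a lipogenic gene of liver and fat, had 0.94 ± 0.08 in thymic cells and 2.47 ± 0.62 in thyroid cells (-1.53, adjusted p = 0.00321). Gpd2, the mitochondrial glycerol phosphate dehydrogenase, was higher in thyroid by a similar amount (-1.47). In thymic cells, Pvalb, a calcium-binding protein of muscle and neurons, was at least 21.7-fold higher. Bdnf, a neurotrophin, differed by 6.04 and was above background on 1 thyroid array, and Nrgn, a neuronal protein, differed by 3.98.

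On slide 1, shared by the 3 thymic arrays and thyroid replicate 1, the signs of all 8 differences were kept. Slide 2 held thyroid replicates 2 and 3 alone, so the slide as a block gave the same differences as slide 1. They were 3.45 for Slco1c1, 2.51 for Dio2, 6.40 for Dio3, -3.23 for Thra and 1.102 for Thrb, with adjusted p-values up to 0.00134 under the block. Crym, Slc16a10 and Dio1 are given above.

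For Dio2 and Thra, both called with over 4-fold differences and above background on all 6 arrays, the genes of most similar pattern were sought among 16105 tested genes with an official symbol. Slco1c1, Dio3 and Crym have no neighbours given here, since none of their thyroid values was flagged well above background. A weaker scanner flag, for signal positive and significant over background, was set on 2 thyroid arrays each for Slco1c1 and Crym. For Dio3 it was set on no thyroid array. Likeness was the root-mean-square distance, in log2 units, between the values on the 6 arrays after each gene was centred on its own mean. Snx20, a sorting nexin, and Arhgdib, a GTPase regulator of blood cells, were nearest to Dio2, at 0.07 and 0.09. Aatk, a kinase gene, and Ctdspl, a phosphatase gene, were nearest to Thra, at 0.07 and 0.08. With 6 arrays in 2 groups, genes with a like difference between the groups lie near each other by construction.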

How the data were processed

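RNA of sorted cells carried the dye Cy3, per the labels. The file headers and the submitters' processing notes name Agilent Feature Extraction, at version 10.5.1.1 in the headers. The deposited scanner files hold each spot's brightness as an intensity, detrended and background-subtracted per the file headers, with probes placed on mm8. The authors also deposited a value table, a linear ratio that equals the processed signal over the median of its array, as a comparison with the scanner values shows.

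Control spots were left out, as were outliers among the other spots (67 to 151 per array), and spots of a probe were averaged. The test took probes above background on every array of either group (3 arrays each), counting the flag where 50% or more of the spots carried it. Where a gene had several such probes, the one of highest mean level stood for it. Names came from a RefSeq table of GRCm38.p6, used for names and start sequences: accessions matched 24375 probes, current symbols 6301 and unambiguous synonyms 2426, while 8072 kept the file's own name. Of the listed genes, Ccl21a was matched to no probe. The test was limma (version 3.58.1, R version 4.3.3), two-sided and with no covariate, using lmFit and eBayes, with Benjamini-Hochberg p-values adjusted over 21395 genes, or 32370 probes where stated, at a threshold of 0.05. The fit was tested on simulated data.

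The genes, lists and tests were chosen with earlier results of these data known. Named were the 8 genes and 10 genes whatever their values. In each pathway list, up to 3 genes per direction with the largest difference among those called were named. The 2 nearest genes in pattern were named too, except for genes above background on no thyroid array. Of the genes this rule takes, 2 are not reported here. Alternatives were normexp correction (offset 50), quantile normalization, median centring, the deposited table, no filter, probes above background everywhere, the median over probes, slide 1 alone, the slide as a block, a replicate block, trended and robust variances, and each array left out. Figures used matplotlib 3.10.9 in Python 3.11.15.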

Additional observations from a re-analysis of the deposited data

How the results depend on the processing

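No difference of the 8 genes changed sign under any of the 17 other ways of processing that gave it a value. Dio2, Dio3, Thra, Thrb and Crym stayed called in all of them, and Slco1c1 in 15 of 16. Slc16a10 was called in 13 of 17 and Dio1 in 4 of 17, among them the deposited table (-1.04, adjusted p = 0.00252) and trended and robust variances (adjusted p = 0.0344). Among probes above background on all 6 arrays, 5 of the 8 genes were tested, since that filter leaves out Slco1c1, Dio3 and Crym. Of these 5, 2 were higher in thymic cells, as were 5032 of 17071 genes in all. The count of the 8 genes higher in thyroid was 1 with normexp correction, with the slide as a block and on slide 1 alone. With each array left out in turn, 5 of the 8 genes were higher in thymic cells each time, and between 1 and 3 were higher in thyroid, with 1 in the fit without thymic replicate 2. Over all genes, 7653 to 8398 were then higher in thymic cells and 5599 to 6391 in thyroid cells. The reported counts were 8407 and 6516. Median centring called 11042 genes higher in thyroid, and 10967 were with the deposited table, so that the thymic share of calls was 35.6% and 35.9%, and 44% with the filter on all 6 arrays. These scalings moved the median of all genes by -0.54 and -0.53, and quantile normalization by -0.19. Numbers do not pair the samples: the deviations of same-numbered arrays correlated at 0.0066, -0.07 and -0.05. A replicate block gave 8061 and 5998 genes and the same counts of 5 and 2 among the 8 genes. Signals near background limit Slco1c1, Dio3 and Crym. Normexp correction, which adds 50 to each signal, gave differences of 0.34, 1.95 and 5.40 for them, where the reported ones were 2.92, 6.18 and 9.19.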
